A study of Homo sapiens with 7 samples.

Results

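Caspases, the proteases that carry out apoptosis, and the proteins that hold them in check were followed in SKOV3 cells, an established line from a human ovarian carcinoma, after lentiviral knockdown of the transcriptional co-repressor CtBP1 or of its relative CtBP2. The 8 genes are the initiator caspases CASP8, CASP10 and CASP9, the executioner CASP6, the caspase-8 regulator CFLAR and the inhibitor of apoptosis (IAP) genes BIRC2, XIAP and BIRC6. They were chosen by name, with earlier results of these data known. A gene was taken from a transcript cluster, the array's unit of measurement, that the platform annotation ties to exactly 1 gene symbol. All 8 were measured, out of 17958 such genes. Where a gene had several clusters, the one with the highest mean was used, which concerned only CFLAR among the 8. Total RNA of 7 samples was measured on Affymetrix Human Gene 1.1 ST arrays, with 1 array per sample. SKOV3 is the cell line stated throughout the labels, except that their source names run from SKOV3 to SKOV9. There are 2 scramble control samples, 3 clones labelled CtBP1 knockdown and 2 clones labelled CtBP2 knockdown, all of them stable lentiviral lines kept in puromycin. The labels report that knockdown was tested at the protein level by western blot. They do not say that the samples came from separate cultures. A p-value here therefore covers the spread among arrays, possibly of technical origin, and the small number of arrays limits the precision. In bulk RNA, fewer cells with a transcript and less of it per cell cannot be told apart.

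As background, apoptosis runs along an extrinsic and an intrinsic route. In the extrinsic route death ligands bind their receptors, and the adaptor FADD gathers CASP8 and CASP10, which are activated there. CFLAR (c-FLIP), a relative of CASP8 without protease activity, joins the same complex and limits or tunes it. In the intrinsic route mitochondria release cytochrome c, and CASP9 is activated on the APAF1 apoptosome. IAP proteins act on both routes: XIAP binds and blocks caspases directly, while BIRC2 (cIAP1) and the very large BIRC6 (Apollon) work mainly as ubiquitin ligases. CtBP proteins do not bind DNA themselves and are brought to promoters by DNA-binding repressors.

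Some properties of the arrays touch every result below. Scramble control 1 stood apart, with an interquartile range of 2.20 log2 units against 2.85 to 3.15 on the other arrays. On it, 18 measured genes of dividing cells (of 20 listed) lay at a median of -1.82 when each gene was centred on its 7-array mean, against -0.07 to 0.56 on the other 6 arrays. CTBP2 was lower on the CtBP2 knockdown arrays (log2 signals of 4.64 and 4.22) than on the scramble arrays (5.70 and 6.14), a difference of -1.49 ± 0.21 (standard error, SE, of the limma fit, adjusted p = 0.18). CTBP1 read 5.69 and 6.37 in the scramble samples against 5.11, 6.13 and 6.13 where its knockdown is the label. These groups overlapped, and the name "labelled CtBP1 knockdown" is used for that reason. The 9 epithelial carcinoma markers, among them ERBB2 at 8.52 to 9.58, had median signals of 5.65 to 7.82 per array, and the medians of the fibroblast, endothelial and leukocyte lists lay between 1.76 and 2.15. CDH1, which encodes the epithelial adhesion protein E-cadherin, was low at 2.36 to 3.27, and CD68, listed as a leukocyte marker, was not, at 5.90 to 7.11.

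The promoter sequences of BIRC2 and CASP8 are shown because these are the members with the largest difference upward and downward between the 2 knockdowns. DNA-binding repressors can bring CtBP to promoters, but binding at these 2 was not measured here. The RefSeq sequences used here (GRCh38.p14) covered start sites of 7 of the 8 genes, all but CASP10. The 250 bases before the first listed start are printed 5′ to 3′, with every CG pair in capitals. The BIRC2 window is chr11:102346964-102347213 on the plus strand:

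BIRC2: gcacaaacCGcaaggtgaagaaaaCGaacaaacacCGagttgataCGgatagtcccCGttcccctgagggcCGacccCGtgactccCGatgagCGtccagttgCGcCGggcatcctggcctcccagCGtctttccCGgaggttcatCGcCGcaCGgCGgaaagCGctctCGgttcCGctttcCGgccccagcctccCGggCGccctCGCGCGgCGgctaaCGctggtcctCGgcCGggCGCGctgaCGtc

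The CASP8 window is chr2:201233213-201233462, also on the plus strand:

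CASP8: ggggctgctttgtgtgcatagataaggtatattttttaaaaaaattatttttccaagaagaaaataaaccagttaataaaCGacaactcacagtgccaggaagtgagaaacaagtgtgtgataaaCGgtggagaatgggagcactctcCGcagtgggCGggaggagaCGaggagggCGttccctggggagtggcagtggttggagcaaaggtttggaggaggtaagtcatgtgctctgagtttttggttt

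The BIRC2 window held 33 CG pairs and 67.6% G or C, and the CASP8 window 6 CG pairs and 45.6%. Over all 35116 listed windows of this length the median was 11 CG pairs, with quartiles of 3 and 23, so BIRC2 lay above the upper quartile and CASP8 between the quartiles. Neither window held CAGGTG, an E-box bound by the CtBP-recruiting repressor ZEB1, or CACCC, the core of the box bound by Krüppel-like factors, on either strand, and neither motif contains the other. They occurred in 17.5% and 54.7% of all windows. Over all listed windows of the members, CAGGTG occurred in 1 of 3 for CASP8 and 1 of 4 for CFLAR, and CACCC in 3 of 4 for CFLAR, 2 of 3 for XIAP, 2 of 2 for BIRC6 and 1 of 2 for CASP9. Such a match is a description of the letters only.

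The caspase and inhibitor genes differed little between the groups, and no difference passed the test. The largest were in BIRC2, at 1.56-fold higher signal on the CtBP2 knockdown arrays than on the scramble arrays, and in CASP6 and CFLAR, at 1.43 and 1.41-fold. On the arrays labelled CtBP1 knockdown BIRC6 (1.36-fold) and CASP8 (1.35-fold) differed most on the deposited scale. Quantile normalization of the columns brought these from 0.45 and 0.43 to 0.22 and 0.23 on the log2 scale, below CASP9, CASP10 and CASP6 (each 0.29), and put CASP6 (0.57) and CFLAR (0.41) above BIRC2 (0.37) for CtBP2 knockdown. Limma called 0 of the 8 members at an adjusted p under 0.05 in each of the 3 comparisons. Over all 17958 genes it called 0% when labelled CtBP1 knockdown was set against scramble, 0.00557% (1 gene) for CtBP2 knockdown against scramble control and 0% for CtBP2 against labelled CtBP1 knockdown.

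At an unadjusted p under 0.05, the arrays labelled CtBP1 knockdown differed from scramble in 1 member, CFLAR, where 4.79% of all genes (861) did. The CtBP2 knockdown arrays differed in 3 members (CFLAR, BIRC2 and CASP6), where 10.2% of all genes (1827) did. The direct comparison of the knockdowns gave 1 member, BIRC2, against 7.77% of all genes (1395). These gene counts depended on single arrays, running from 496 (without labelled CtBP1 knockdown array 3) to 6516 (without scramble control 2), from 778 (without CtBP2 knockdown array 1) to 7124 (without scramble control 2), and from 671 (without CtBP2 knockdown array 1) to 2552 (without either scramble array). Without scramble control 1 the count for labelled CtBP1 knockdown was 1379, and without either CtBP2 knockdown array it was 538. Without CtBP2 knockdown array 2 the counts for CtBP2 knockdown were 923 against scramble and 727 against labelled CtBP1 knockdown.

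Against scramble, 7 of the 8 members had a higher mean on the arrays labelled CtBP1 knockdown, with a median difference of 0.22 on the log2 scale, and 7 had a higher mean on the CtBP2 knockdown arrays, with a median of 0.43. Over all genes the medians were -0.00 and -0.02, and 49.2% and 47.3% of genes had a higher mean. Among the 14196 genes with a mean of at least 2, which include all 8 members, the medians were 0.05 and 0.06. The share of those genes with a higher mean was not counted. Since both comparisons use the same 2 control arrays, they are not independent of each other. Groups did not overlap, with every knockdown array higher, for 2 members (CASP8 and CFLAR) in the first comparison, where 6.76% of all genes did, and for 5 (CASP6, CFLAR, BIRC2, XIAP and BIRC6) in the second, where 19.3% did. In both, 0 members were separated in the lower direction, against 7.59% and 21.7% of all genes. Without scramble control 1 the members with a higher mean numbered 6 and 5, against 45.0% and 42.6% of all genes. Those with every knockdown array above scramble control 2 numbered 3 and 5, against 19.4% and 32.1% of all genes. Scramble control 1 had the lowest median over the members, at -0.34 relative to each gene's mean, against -0.08 on scramble control 2. It was not the lowest array for CASP10, BIRC2 and XIAP. The part of the dividing-cell genes in these differences was not tested.

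**Figure D1:**
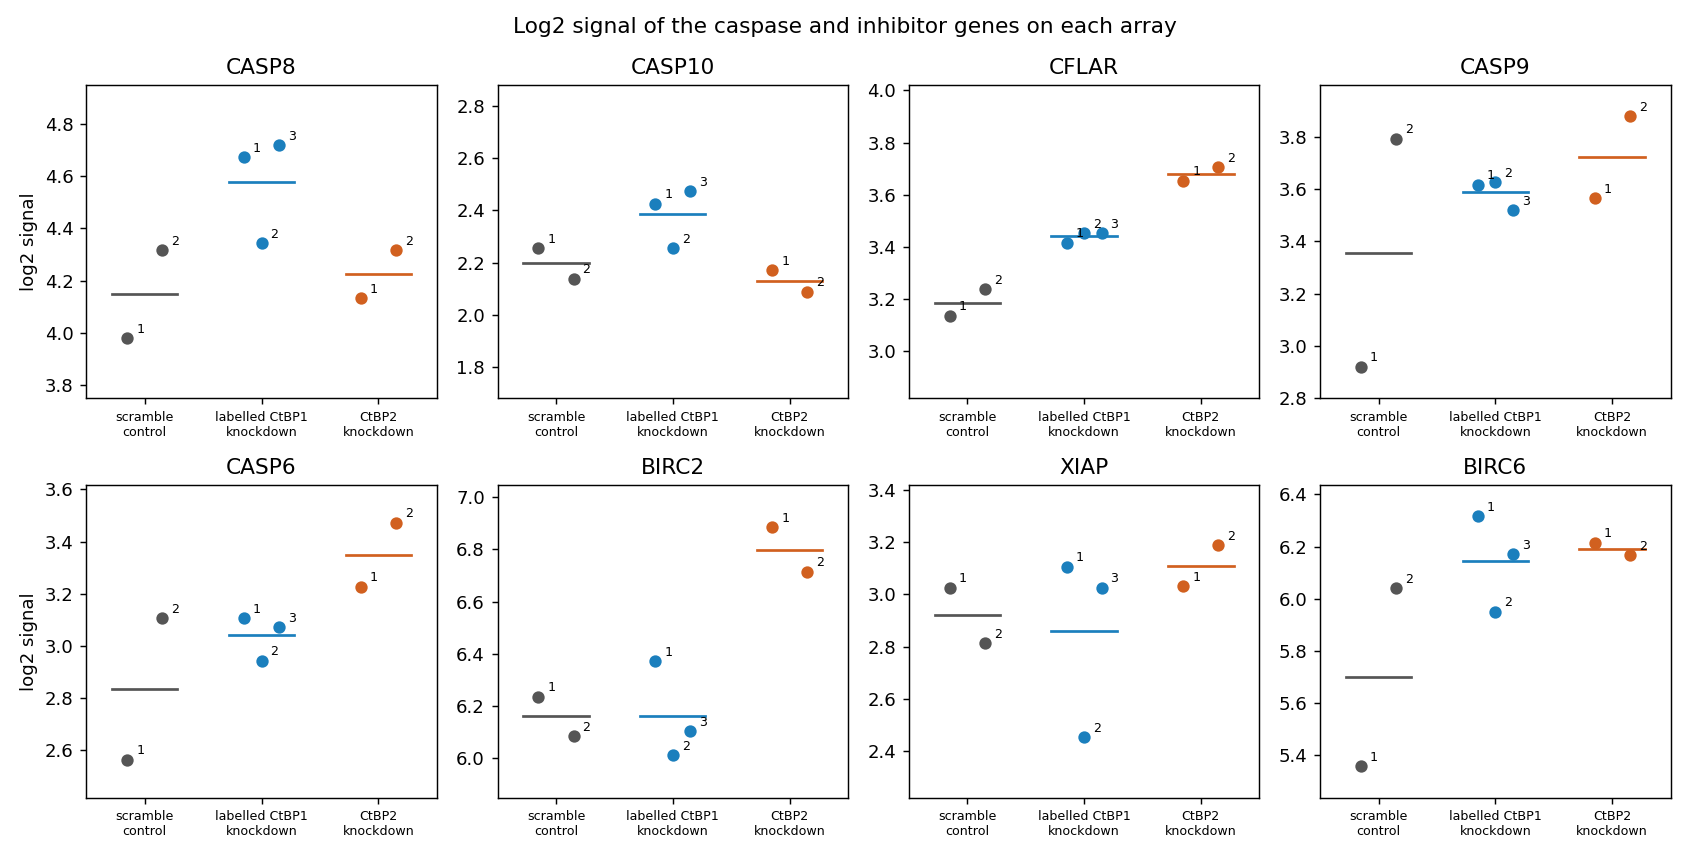
Log2 signals of the 8 genes on each of the 7 arrays, with array numbers beside the points and a bar at each group's mean; every panel spans the same range of 1.2 log2 units. The CtBP2 knockdown points of BIRC2, CASP6 and, by the cluster used, CFLAR lie above all others. Scramble control 1 is the lowest point for CASP6, CASP8, CASP9, CFLAR and BIRC6.

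CASP8, the initiator of the extrinsic route, had log2 signals of 3.98 and 4.32 on scramble controls 1 and 2, of 4.67, 4.34 and 4.72 on those labelled CtBP1 knockdown, and of 4.13 and 4.32 on the CtBP2 knockdown arrays. All 3 labelled CtBP1 knockdown arrays lay above both controls, array 2 by only a small margin, while the CtBP2 knockdown arrays lay within the range of the controls. The group means were 4.15 ± 0.24 (SD, n = 2), 4.58 ± 0.20 (SD, n = 3) and 4.22 ± 0.13 (SD, n = 2). The arrays labelled CtBP1 knockdown exceeded scramble by 0.43 ± 0.18 (SE), with a 95% interval of -0.00 to 0.86 and an adjusted p of 0.734 (limma), and by 0.23 after quantile normalization. CtBP2 knockdown differed from scramble by 0.08 ± 0.19 (SE), an interval of -0.40 to 0.55, and this difference turned to -0.19 when the columns were quantile normalized. Between the knockdowns the CASP8 difference (CtBP2 minus labelled CtBP1) was -0.36 ± 0.18 (SE, adjusted p = 0.761) with separated groups.

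CASP10, the close relative of CASP8 that also binds FADD, was also highest on arrays labelled CtBP1 knockdown. Its signals were 2.26 and 2.14 on the scramble arrays, 2.43, 2.26 and 2.47 on those labelled CtBP1 knockdown, and 2.17 and 2.09 on the CtBP2 knockdown arrays. They were low, close to the medians of the fibroblast, endothelial and leukocyte lists (1.76 to 2.15). Signal over background was not analysed, so the CASP10 differences may not reflect its transcript. Labelled CtBP1 knockdown array 2 had the same value as scramble control 1, and the other 2 arrays of that group were the highest of the 7. The difference from scramble was 0.19 ± 0.12 (SE, interval -0.11 to 0.48) for the arrays labelled CtBP1 knockdown. For the CtBP2 knockdown it was -0.07 ± 0.13 (SE, interval -0.39 to 0.26), and 0.08 after quantile normalization. Between the knockdowns the groups were separated, at -0.25 ± 0.12 (SE, adjusted p = 0.739).

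CFLAR, the brake on the CASP8 complex, had signals of 3.14 and 3.24 on the scramble arrays, 3.42, 3.45 and 3.45 on those labelled CtBP1 knockdown, and 3.65 and 3.71 on the CtBP2 knockdown arrays. The 3 groups did not overlap, with scramble lowest and CtBP2 knockdown highest. Group means were 3.19 ± 0.07 (SD, n = 2), 3.44 ± 0.02 (SD, n = 3) and 3.68 ± 0.04 (SD, n = 2). The differences from scramble were 0.25 ± 0.10 (SE, adjusted p = 0.734) for the arrays labelled CtBP1 knockdown and 0.49 ± 0.11 (SE, adjusted p = 0.315) for CtBP2 knockdown. Its SE was the smallest among the members, and 2 of its labelled CtBP1 knockdown values are identical. A second CFLAR cluster, with a mean of 3.40 against 3.44 for the one used, gave another picture: 3.88 and 3.28 on the scramble arrays, 3.45, 3.10 and 3.36 on those labelled CtBP1 knockdown, and 3.03 and 3.68 on the CtBP2 knockdown arrays. On that cluster scramble control 1 was the highest array and the CtBP2 knockdown arrays were the lowest and the second highest. Its differences from scramble were -0.28 ± 0.27 and -0.23 ± 0.30 (SE), and the mean of both clusters differed by -0.01 and 0.13, so the direction for CFLAR depends on which cluster is read.

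**Figure D2:**
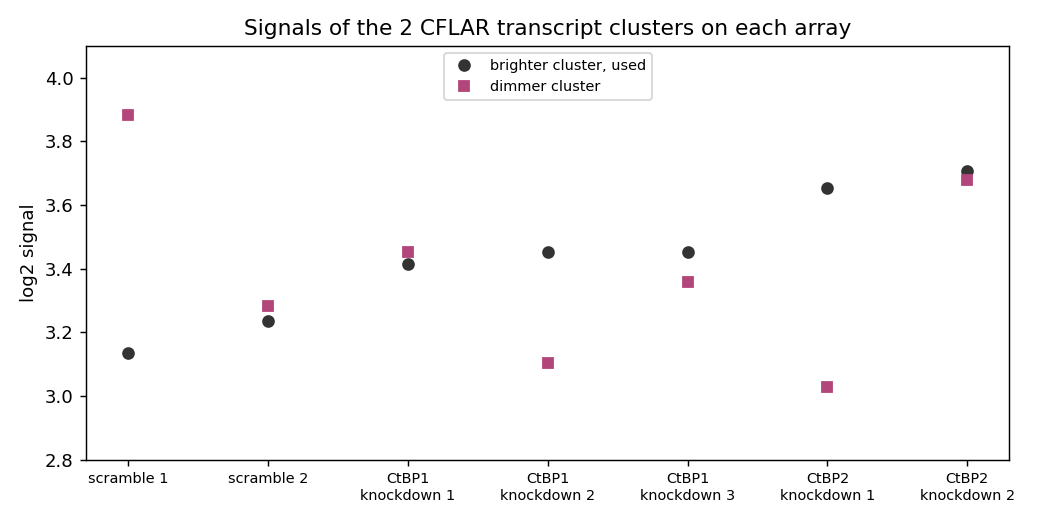
Log2 signal of the 2 transcript clusters annotated to CFLAR on each array; circles are the brighter cluster used in the comparisons, squares the dimmer cluster. The circles step up from scramble (3.14 and 3.24) to CtBP2 knockdown (3.65 and 3.71), while the squares run from 3.03 to 3.88 with no separation of the groups.

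CFLAR, CASP10 and CASP8 are consecutive protein-coding genes on chromosome 2, in this order, in the RefSeq annotation. The neighbours did not share a pattern on these arrays. CASP8 and, at low signals, CASP10 were highest on the arrays labelled CtBP1 knockdown. CFLAR was highest on the CtBP2 knockdown arrays by the cluster used.

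CASP9, the initiator activated on the apoptosome, lay between 3.52 and 3.88 on every array except scramble control 1. Its signals were 2.92 and 3.79 on the scramble arrays, 3.62, 3.63 and 3.52 on those labelled CtBP1 knockdown, and 3.57 and 3.88 on the CtBP2 knockdown arrays. Scramble control 1 was the lowest of all, and scramble control 2 lay above the 3 labelled CtBP1 knockdown arrays. The differences from scramble were 0.23 ± 0.26 and 0.37 ± 0.29 (SE), with intervals of -0.42 to 0.88 and -0.34 to 1.08. Against scramble control 2 alone they were -0.21 and -0.07.

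CASP6, an executioner caspase that cleaves nuclear lamins, had signals of 2.56 and 3.11 on the scramble arrays, 3.11, 2.94 and 3.07 on those labelled CtBP1 knockdown, and 3.23 and 3.47 on the CtBP2 knockdown arrays. The CtBP2 knockdown arrays were the 2 highest, and scramble control 2 tied with labelled CtBP1 knockdown array 1. CtBP2 knockdown exceeded scramble by 0.51 ± 0.21 (SE), with an interval of 0.00 to 1.02 and an adjusted p of 0.489. The arrays labelled CtBP1 knockdown differed from scramble by 0.21 ± 0.19 (SE, interval -0.26 to 0.67). A further cluster that the annotation assigns to CASP6 together with another gene was not used.

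BIRC2 encodes cIAP1, a ubiquitin ligase that keeps RIPK1 in a survival complex at the TNF receptor and restrains non-canonical NF-kB signalling. Its signals were 6.23 and 6.08 on the scramble arrays, 6.37, 6.01 and 6.10 on those labelled CtBP1 knockdown, and 6.88 and 6.71 on the CtBP2 knockdown arrays. The CtBP2 knockdown arrays were the 2 highest, and the other 5 lay together. Group means were 6.16 ± 0.11 (SD, n = 2), 6.16 ± 0.19 (SD, n = 3) and 6.80 ± 0.12 (SD, n = 2). CtBP2 knockdown exceeded scramble by 0.64 ± 0.17 (SE), with a 95% interval of 0.24 to 1.04 and an adjusted p of 0.357. It exceeded the arrays labelled CtBP1 knockdown by 0.64 ± 0.15 (SE), with an interval of 0.27 to 1.01 and an adjusted p of 0.353. The arrays labelled CtBP1 knockdown differed from scramble by 0.00 ± 0.15 (SE, interval -0.37 to 0.37), which became -0.03 with arrays centred on their median and -0.19 with quantile normalization. Quantile normalization also brought the CtBP2 difference from scramble to 0.37, and leaving out single arrays gave 0.555 to 0.724.

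XIAP, which binds and inhibits CASP9 directly, had signals of 3.03 and 2.81 on the scramble arrays, 3.11, 2.45 and 3.03 on those labelled CtBP1 knockdown, and 3.03 and 3.19 on the CtBP2 knockdown arrays. Labelled CtBP1 knockdown array 2 was the lowest array, and 3 arrays, one of them from each group, lay at 3.03. Its differences from scramble were -0.06 ± 0.22 and 0.19 ± 0.24 (SE), with intervals of -0.60 to 0.49 and -0.41 to 0.79. The separation of the CtBP2 knockdown arrays from the controls rested on a margin smaller than the rounding of these values.

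BIRC6, a giant ubiquitin-conjugating enzyme with an IAP repeat, had signals of 5.36 and 6.04 on the scramble arrays, 6.32, 5.95 and 6.17 on those labelled CtBP1 knockdown, and 6.21 and 6.17 on the CtBP2 knockdown arrays. Scramble control 1 was far below the other 6 arrays, which lay between 5.95 and 6.32. The differences from scramble were 0.45 ± 0.23 (SE, adjusted p = 0.734) and 0.49 ± 0.25 (SE, adjusted p = 0.529), and 0.22 and 0.17 after quantile normalization. Between the knockdowns BIRC6 differed by 0.04 ± 0.23 (SE, interval -0.51 to 0.60), and by -0.05 after quantile normalization.

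**Figure D3:**
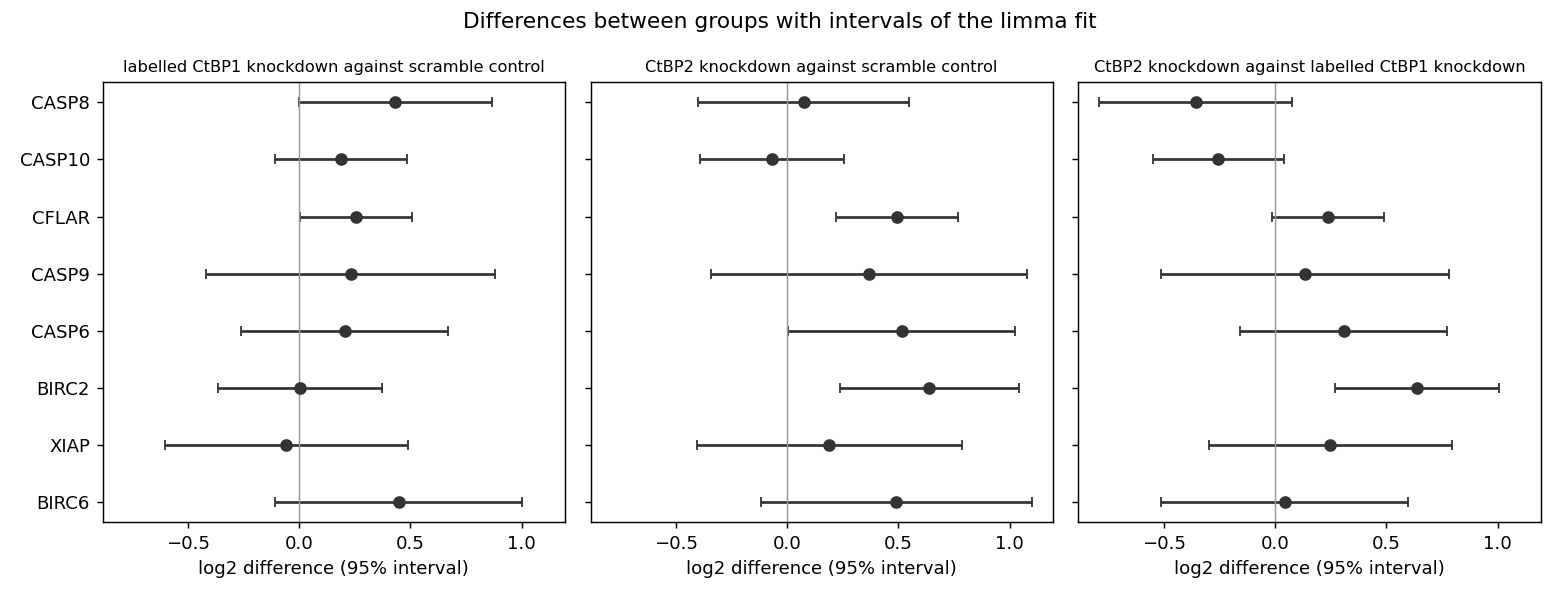
Log2 differences (points) of the 8 genes with their 95% intervals from the limma fit (bars), for the 3 comparisons. The intervals of BIRC2 exclude 0 in both comparisons with CtBP2 knockdown before adjustment over all genes, as do those of CFLAR against scramble for both knockdowns and of CASP6 for CtBP2 knockdown against scramble, while all intervals of CASP8, CASP9, CASP10, XIAP and BIRC6 include 0.

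The direct comparison of the knockdown groups asked in which members they differ. For CASP6, CFLAR and BIRC2 both CtBP2 knockdown arrays lay above all 3 labelled CtBP1 knockdown arrays, where 15.8% of all genes did so. For CASP8 and CASP10 they lay below, where 16.2% did. The differences were 0.31 ± 0.19 for CASP6, 0.24 ± 0.10 for CFLAR and 0.64 ± 0.15 for BIRC2 (SE), with adjusted p from 0.353 to 0.837. The remaining differences, 0.13 ± 0.26 for CASP9 and 0.25 ± 0.22 for XIAP (SE), came with overlapping groups and intervals of -0.51 to 0.78 and -0.30 to 0.79. The median over the 8 members was 0.19, against -0.01 over all genes and 0.01 over genes with a mean of at least 2. It ran from 0.0991 (without labelled CtBP1 knockdown array 2) to 0.278 (without CtBP2 knockdown array 1). Without CtBP2 knockdown array 2 it was 0.119. This comparison does not use the scramble arrays other than for the shared estimate of the spread.

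In the order of group means, CtBP2 knockdown was highest and scramble lowest for CASP6, CASP9, CFLAR, BIRC2 and BIRC6. For CASP8 the order from high to low was labelled CtBP1 knockdown, CtBP2 knockdown, scramble. For CASP10 it was labelled CtBP1 knockdown, scramble, CtBP2 knockdown, and for XIAP it was CtBP2 knockdown, scramble, labelled CtBP1 knockdown. Among neighbours in these orders, scramble and labelled CtBP1 knockdown overlapped for CASP6, CASP9, CASP10, BIRC2, XIAP and BIRC6. The knockdown groups overlapped for CASP9 and BIRC6, and scramble and CtBP2 knockdown for CASP8 and CASP10. CFLAR, by the cluster used, had no overlapping neighbours.

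The choice of control decided how large several of these differences were. BIRC6, CASP9 and CASP6 differed between scramble controls 1 and 2 by -0.68, -0.87 and -0.54 (control 1 minus control 2), more than any of their differences between groups. Against scramble control 2 alone, the differences of the arrays labelled CtBP1 knockdown were 0.11, -0.21 and -0.07 for these 3 genes, and against scramble control 1 alone they were 0.79, 0.67 and 0.48. For the CtBP2 knockdown they were 0.15, -0.07 and 0.24 against scramble control 2, and 0.83, 0.80 and 0.79 against scramble control 1. With scramble control 1 as the lone control, whose spread is then assumed to be that of the other groups, limma called 2 members for the arrays labelled CtBP1 knockdown (BIRC6, adjusted p = 0.0388, and CASP9, adjusted p = 0.0468), where it called 18.2% of all genes. For the CtBP2 knockdown it called 4 members (CFLAR, CASP6, CASP9 and BIRC6, adjusted p from 0.0272 to 0.0342), where it called 22.0% of all genes. Under the other settings tried the adjusted p of these members reached 0.930 or more. BIRC2 and, by the cluster used, CFLAR depended less on the control for the CtBP2 knockdown. They differed by 0.72 and 0.44 against scramble control 2, and by 0.56 and 0.54 against scramble control 1. The second CFLAR cluster did depend on it, at 3.88 and 3.28 on scramble controls 1 and 2 against 3.03 and 3.68 on the CtBP2 knockdown arrays. CASP8 on the arrays labelled CtBP1 knockdown differed by 0.26 and 0.60.

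**Figure D4:**
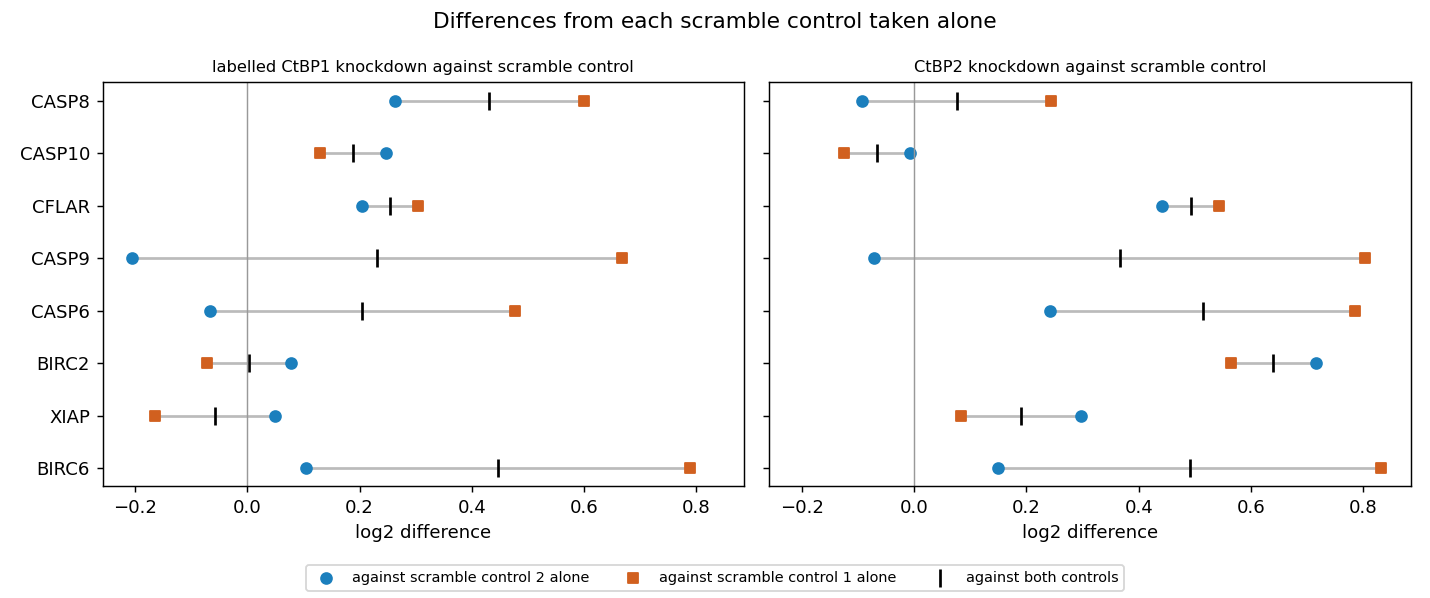
Log2 differences of the 8 genes from scramble control 2 alone (circles), from scramble control 1 alone (squares) and from both (vertical bars), for each knockdown. CASP9, BIRC6 and CASP6 have the longest spans, and CASP9 crosses 0 in both panels, from -0.21 to 0.67 and from -0.07 to 0.80.

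Other genes of the pathway were read from lists of its parts. No gene of these lists passed the test in any comparison, so counts of direction and unadjusted p are given. Against scramble control 1 alone, where limma called 18.2% and 22.0% of all genes, CASP2, BIRC5 and DIABLO passed for both knockdowns and OTULIN, TRAF3, RBCK1, LMNB1 and CYCS for CtBP2 knockdown, among the differences given below. Their adjusted p ran from 0.00883 to 0.0452 there, and reached 0.930 or more under other settings. Among the other initiator and executioner caspases, 1 of 3 listed genes, CASP2, had a cluster with a single symbol. Its difference from scramble was 0.68 ± 0.51 on the clones labelled CtBP1 knockdown and 0.40 ± 0.56 on the CtBP2 knockdown arrays (SE), and its signals on scramble controls 1 and 2 were 5.29 and 7.03. Against scramble control 2 alone the CASP2 differences turned to -0.19 and -0.47. The list of inflammatory and other caspases (7 genes, among them CARD8 and PYCARD, which are not caspases) had medians of -0.03 and -0.17. Of these 7 genes, 0 reached an unadjusted p under 0.05 in any comparison, where 4.79%, 10.2% and 7.77% of all genes did.

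Death ligands and receptors, which act upstream of CASP8, held the largest differences. Their median was 0.11 for the arrays labelled CtBP1 knockdown, with 6 of 10 measured genes higher, where 49.2% of all genes were. An unadjusted p under 0.05 was reached by 5 of them, where 4.79% of all genes reached it, and of these TNF, TNFSF10 and TNFRSF10A were higher and TNFRSF10B and TNFRSF10D, further receptors for TRAIL, lower (TNFRSF10A and TNFRSF10B are named after their values were seen). TNFSF10, which encodes the death ligand TRAIL, had signals of 6.29 and 5.39 on the scramble arrays, 7.59, 7.80 and 7.02 on those labelled CtBP1 knockdown, and 5.80 and 4.34 on the CtBP2 knockdown arrays. The labelled CtBP1 knockdown arrays were the 3 highest. They exceeded scramble by 1.64 ± 0.51 (SE, limma adjusted p = 0.734), and the CtBP2 knockdown differed from them by -2.41 ± 0.51 (SE, adjusted p = 0.291, and 0.0791 to 1 under the alternatives).

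TNF, the founding ligand of the family, had signals of 4.48 and 2.53 on the scramble arrays, 4.998, 6.73 and 6.10 on those labelled CtBP1 knockdown, and 5.20 and 4.93 on the CtBP2 knockdown arrays. Every knockdown array lay above both controls, which themselves differed by 1.95. The TNF difference was 2.44 ± 0.70 (SE) for the arrays labelled CtBP1 knockdown and 1.56 ± 0.77 (SE) for the CtBP2 knockdown, which were 3.41 and 2.54 without scramble control 1, and 1.46 and 0.58 without scramble control 2. TNFRSF10D, a decoy receptor for TRAIL, differed by -0.55 ± 0.18 (SE) on the arrays labelled CtBP1 knockdown, and by -0.34 without scramble control 1.

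On the CtBP2 knockdown arrays 6 of the 10 ligand and receptor genes were higher than scramble, where 47.3% of all genes were, with a median of 0.02 that turned to -0.04 with arrays centred on their median. An unadjusted p under 0.05 was reached by 2 of the 10, where 10.2% of all genes reached it. TNFRSF21, a receptor with a death domain, differed by 1.38 ± 0.47 and FAS, the receptor for FAS ligand, by 0.48 ± 0.19 (SE). Without scramble control 1 these were 0.87 and 0.73, and without scramble control 2 they were 1.90 and 0.22. Under quantile normalization FAS differed by 0.18.

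Adaptors, kinases and ubiquitin enzymes of the death-inducing complexes had medians of 0.10 (10 of 14 genes higher) on the labelled CtBP1 knockdown arrays and 0.33 (12 of 14 higher) on the CtBP2 knockdown arrays. Among all genes, 49.2% and 47.3% were higher. Without scramble control 1 the medians were -0.01 (5 higher) and 0.10 (9 higher), without scramble control 2 they were 0.28 and 0.55, and after quantile normalization 0.01 and 0.14. FADD, the adaptor that recruits CASP8, and RNF31 of the linear ubiquitin ligase were singled out after their values were seen. Each had identical values on scramble control 2 and all 3 labelled CtBP1 knockdown arrays (4.39 and 3.69). RNF31 had the same value on CtBP2 knockdown array 2 as well. OTULIN, a deubiquitinase of linear chains, differed by 0.45 ± 0.14 and TRAF3, a partner of BIRC2 in the NF-kB pathway, by 0.70 ± 0.27 on the CtBP2 knockdown arrays (SE). RBCK1, a subunit of the linear ubiquitin ligase complex, differed by -0.73 ± 0.29 (SE). Without scramble control 1 TRAF3 and RBCK1 came to 0.32 and -0.31, and without scramble control 2 to 1.08 and -1.16. OTULIN came to 0.11 under quantile normalization.

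The other IAP genes with a single-symbol cluster (4 of 5) had medians of 0.01 and -0.09. After quantile normalization these were -0.06 and 0.03. Without scramble control 1 both were 0.07, and without scramble control 2 they were -0.09 and -0.28. BIRC5, which encodes survivin and belongs to the genes of dividing cells, differed by 0.51 ± 0.42 and 0.90 ± 0.46 (SE), and its controls read 3.88 and 5.41. Against scramble control 2 alone BIRC5 differed by -0.25 and 0.14. The IAP antagonists (3 of 4 measured) had medians of 0.02 and -0.01, and of 0.12 and 0.03 after quantile normalization. DIABLO, which encodes Smac, a mitochondrial protein that displaces IAPs from caspases, differed by 0.39 ± 0.27 and 0.35 ± 0.30 (SE), and its controls read 4.91 and 5.84. Against scramble control 2 alone the DIABLO differences turned to -0.08 and -0.12.

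Of the apoptosome genes, CYCS, which encodes cytochrome c, had signals of 3.30 and 4.39 on the scramble arrays, 3.51, 4.17 and 3.65 on those labelled CtBP1 knockdown, and 4.65 and 5.02 on the CtBP2 knockdown arrays. The CtBP2 knockdown arrays were the 2 highest. Against scramble they differed by 0.98 ± 0.40 (SE), which was 0.44 without scramble control 1 and 1.53 without scramble control 2. CYCS differed between the knockdowns by 1.05 ± 0.37 (SE, adjusted p = 0.551), while APAF1, the scaffold that CASP9 binds, differed by -0.02 ± 0.27 (SE).

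Of 13 caspase substrates, 7 and 8 were higher, where 49.2% and 47.3% of all genes were, with medians of 0.19 and 0.14. Without scramble control 1 these were -0.25 (3 higher) and -0.00 (6 higher), without scramble control 2 they were 0.60 and 0.68, and after quantile normalization -0.01 on both, so the direction of the list depended on the control and on the scaling. GSN, which encodes the actin-severing protein gelsolin, had signals of 2.99 and 3.00 on the scramble arrays, 3.71, 3.65 and 4.19 on those labelled CtBP1 knockdown, and 3.88 and 4.20 on the CtBP2 knockdown arrays. All 5 knockdown arrays lay above both controls, and the controls were nearly equal. The GSN differences were 0.86 ± 0.20 (SE, adjusted p = 0.734) and 1.05 ± 0.22 (SE, adjusted p = 0.287), and lay between 0.69 and 0.96 and between 0.89 and 1.21 under the alternatives. MCL1, an anti-apoptotic BCL2 relative that caspases cleave, differed by -0.43 ± 0.16 on the labelled CtBP1 knockdown arrays and by 0.57 ± 0.16 between CtBP2 and labelled CtBP1 knockdown (SE). The first of these was -0.27 without scramble control 1. LMNB1, which encodes lamin B1, differed by 1.14 ± 0.46 (SE) on the CtBP2 knockdown arrays, and by 0.39 without and 1.89 with only scramble control 1.

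**Figure D5:**
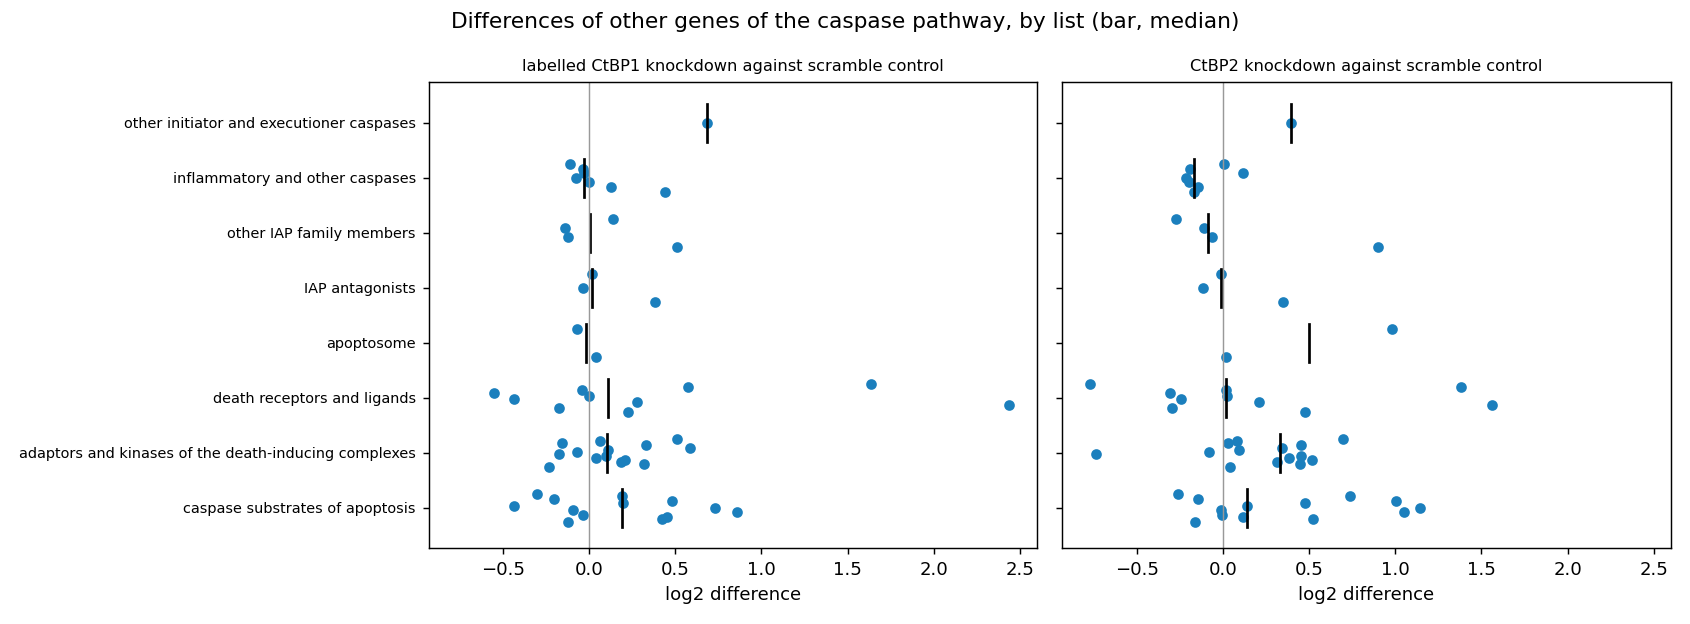
Log2 differences from scramble control of single genes (points) in 8 lists of the caspase pathway, for each knockdown, with a bar at each list's median. The widest spread is among death receptors and ligands, where TNF (2.44) and TNFSF10 (1.64) are the points farthest right for the arrays labelled CtBP1 knockdown.

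Genes with the most similar pattern were sought for the 3 members with the widest range over the 7 arrays, CASP9, BIRC6 and CASP6 (0.96, 0.96 and 0.91 log2 units). Likeness was the root mean square difference over the 7 arrays after setting each gene relative to its own mean. Closest to CASP9 were ABHD2 (0.06), DCLRE1B (0.06) and DCPS (0.06), and closest to BIRC6 were ZC3H12C (0.05), RBM25 (0.05) and ZNF682 (0.06). Closest to CASP6 were DSTNP2 (0.04), DUSP12 (0.05) and SUCLG1 (0.06). In all 9 of them, as in these 3 members, scramble control 1 was the lowest array. The 9 were picked for likeness to the members' values on the same arrays, so this follows largely from the choice.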

How the data were processed

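Total RNA of 7 samples, all SKOV3 per the cell line field of the labels, was measured on Affymetrix Human Gene 1.1 ST arrays. The submitters' processing notes name Affymetrix Expression Console and RMA, with no versions, as the source of the deposited log2 signal of each cluster on each array. RMA brings probe signals to a common distribution before it summarises them, which can shrink array-wide differences. The genome build is not given in the sources used here.

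Of 33297 clusters, 19181 carried exactly 1 symbol, which was updated through Entrez identifiers (RefSeq, GRCh38.p14). The brightest cluster per gene gave 17958 genes, of which 10778 had no value shared by several arrays. Groups came from sample titles. Limma 3.58.1 in R 4.3.3 (3 group means over all 7 arrays, default eBayes) tested 3 comparisons, two-sided, with Benjamini-Hochberg adjustment over all genes at 0.05. Figures were drawn with matplotlib 3.10.9.

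The members, the lists and the naming rules were chosen with earlier results of these data known. All 8 members were named, and of each pathway list at most the 3 genes with the smallest p per comparison. Simulated data had independent noise, equal in spread on all 7 arrays for a gene, without an array standing apart as scramble control 1 did. On them the fit recovered 36%, 34% and 38% of genes changed by 1 log2 unit, in the order of the comparisons above (17958 genes each). At 2 units it recovered 85%, 88% and 89%, and it called 9, 7 and 7 unchanged genes. These shares need not hold for the real arrays. Alternatives covered normalization, filters, priors, array weights, a block on the replicate number, and single arrays left out.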

Additional observations from a re-analysis of the deposited data

How the results depend on the processing

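The 24 differences of the members kept their sign under the 11 alternatives that use every array of a comparison, with 8 exceptions, and their side of the threshold in all of them. The exceptions were, for the arrays labelled CtBP1 knockdown, CFLAR with the mean of its clusters (-0.0121) and with its dimmer cluster (-0.28, an alternative chosen after seeing the data), and BIRC2 with quantile normalization (-0.19) and with arrays centred on their median (-0.0339). For CtBP2 knockdown they were CASP8 (-0.19) and CASP10 (0.0799) with quantile normalization and CFLAR with its dimmer cluster (-0.23), and between the knockdowns BIRC6 with quantile normalization (-0.0528). The cause was not tested. Leaving out single arrays turned 11 signs and brought 6 differences past the threshold, all of them without scramble control 2. The ranges for the arrays labelled CtBP1 knockdown were -0.0666 to 0.48 for CASP6, -0.21 to 0.67 for CASP9, -0.10 to 0.0784 for BIRC2 and -0.18 to 0.15 for XIAP. For CtBP2 knockdown they were -0.0922 to 0.24 for CASP8 and -0.0707 to 0.80 for CASP9, and between the knockdowns -0.0215 to 0.29 for CASP9 and -0.054 to 0.13 for BIRC6. The median over the members ran from 0.0919 to 0.39 and from 0.20 to 0.55 against scramble without single arrays. Between the knockdowns it ran from 0.0991 to 0.278. For CtBP2 knockdown it was 0.27 with quantile normalization and 0.28 with the mean of the clusters or the dimmer CFLAR cluster. Genes called ran from 0 to 3262 (labelled CtBP1 knockdown) and 0 to 3952 (CtBP2 knockdown) without single arrays. For CtBP2 knockdown the call of 1 gene became 0 with robust eBayes, only the groups compared, array weights, or the replicate number as a replicate block, which called 0 genes in each comparison. Deviations of same-numbered arrays from their group means had correlations of -0.35 to 0.10 across genes. In a group of 2 arrays the deviations mirror each other, so this cannot settle whether the numbers pair the arrays. Between the knockdowns 7 genes were called with quantile normalization and 272 with array weights, where the lowest adjusted p of a member was 0.0617 (BIRC2). Quantile normalization turned the split of genes at an unadjusted p under 0.05 from 516 higher and 345 lower to 640 and 725 (labelled CtBP1 knockdown), from 1291 and 536 to 1029 and 914 (CtBP2 knockdown), and from 954 and 441 to 888 and 751 (between the knockdowns). Leaving out genes with tied values removed 5 of the 8 members, so no median was taken there. Alternatives for the single pathway genes given with differences above, APAF1 apart, were added after seeing the data. They turned signs only where an array was left out. For the arrays labelled CtBP1 knockdown the ranges were -0.1876 to 1.5565 for CASP2, -0.2522 to 1.2785 for BIRC5, -0.0828 to 0.8542 for DIABLO and -0.6139 to 0.4763 for CYCS. For CtBP2 knockdown they were -0.4737 to 1.2704 for CASP2 and -0.1184 to 0.8186 for DIABLO. Among all genes of the lists, signs also turned with every array kept. For labelled CtBP1 knockdown, quantile normalization changed the adaptor list from 10 to 7 of 14 genes higher. It changed the list of inflammatory and other caspases from 3 to 5 of 7. For CtBP2 knockdown it changed the substrates from 8 to 6 of 13 and the other IAP genes from 1 to 3 of 4. Signal over background was not analysed here.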
